A study of Mus musculus with 29 samples.

Results

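The stromal cells labelled MSC (mesenchymal cells) of the blood stem cell niche were compared between mice with a Wnt5a-haploinsufficient niche and mice with a wild-type (WT) niche. These cells gave 6 of the 29 libraries of the study, chosen by their sample names: 3 labelled Wnt5a, numbered 4, 5 and 6, and 3 labelled WT, numbered 1, 2 and 3. The design text calls the first niche Wnt5a-haploinsufficient, and both groups share the strain label 129Ly5.1. The allele, the age of the mice, the number of animals behind a library, the sort gates and any transplant into the niche donors are not stated in the labels. The other libraries are 6 of niche endothelial cells (EC), 6 of osteoblastic niche cells (OBC) and 11 of transplanted blood stem and progenitor cells. Sorted cells were lysed at once, and their cDNA was barcoded and pooled so that single molecules could be counted by unique molecular identifiers (UMIs). No label says that libraries of 1 group came from separate animals, so the p-values below measure the spread between these libraries, which may be technical. Wnt5a itself was not analysed here in the niche, so the genotype label was not checked against it.

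WNT5A is a secreted signal that acts mainly through non-canonical WNT pathways, which steer the actin cytoskeleton, cell polarity and calcium signalling without the help of beta-catenin. Mesenchymal cells around marrow vessels make collagen-rich matrix and are a main source of stem cell factor (gene Kitl) and of the chemokine CXCL12, on which blood stem cells depend. Endothelial cells of the marrow make stem cell factor as well.

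The Wnt5a libraries held 19999, 48279 and 46549 UMIs, and the WT libraries held 50421, 37352 and 45573. Expression is given as CPM, a gene's UMIs relative to all UMIs of tested genes in the library, brought to a common total after TMM scaling. On this scale 1 UMI was worth 73.0 CPM in Wnt5a replicate 4, the shallowest library, and 30.6 to 38.4 CPM in the other 5. UMIs were found for 13035 of 18194 genes in these 6 libraries, and 1099 genes had enough UMIs over the 18 niche libraries to be tested. A value near 1 or 2 UMIs is therefore at the edge of detection.

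The 3 markers named for the mesenchymal cells were checked first. Col3a1, a fibrillar collagen, was at 1094, 711 and 560 CPM in the Wnt5a libraries and at 1348, 538 and 1149 CPM in the WT libraries. Its group means elsewhere were 130 CPM in EC Wnt5a, 55.9 CPM in EC WT, 283 CPM in OBC Wnt5a and 302 CPM in OBC WT. Dcn, which encodes the collagen-binding proteoglycan decorin, was at 6493, 2304 and 1364 CPM in the Wnt5a libraries, against 2880, 2345 and 2266 CPM in the WT libraries. Elsewhere Dcn averaged 379 CPM in EC Wnt5a, 139 CPM in EC WT, 1153 CPM in OBC Wnt5a and 1105 CPM in OBC WT. Pi16, a marker of adventitial fibroblasts, was at 876, 508 and 455 CPM in Wnt5a and at 337, 346 and 447 CPM in WT. Elsewhere Pi16 averaged 48.2 CPM in EC Wnt5a, 19.2 CPM in EC WT, 33.8 CPM in OBC Wnt5a and 0 CPM in OBC WT. Each of the 3 markers had a higher mean in MSC than in EC and OBC of the same genotype, a difference that was not tested. The groups overlapped for Col3a1 and Dcn, while for Pi16 all Wnt5a libraries lay above the WT libraries. The nearest Pi16 libraries, at 455 and 447 CPM, differed by less than the worth of 1 UMI. Of all tested genes, 12.7% had all Wnt5a libraries above all WT libraries. None of the 3 markers passed the test between genotypes. Their log2 fold changes (Wnt5a over WT) were -0.43 (edgeR adjusted p = 0.617, SE 0.41), 0.39 (edgeR adjusted p = 0.701, SE 0.47) and 0.64 (edgeR adjusted p = 0.622, SE 0.62). The sign for Dcn turns on Wnt5a replicate 4, the library with the highest Dcn level, and was negative without it (-0.44).

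The MSC libraries were not free of endothelial transcripts. The list of 15 endothelial markers took 2.14, 1.61 and 1.61% of all UMIs in the Wnt5a libraries and 2.86, 2.55 and 2.51% in the WT libraries. The same list took 3.22, 1.58 and 3.04% in EC WT libraries and 0.453 to 0.875% in OBC WT libraries. The MSC WT libraries thus lay within the EC WT range only through EC WT replicate 14 (1.58%), which holds 24.3% haemoglobin UMIs. They lay below the other EC WT libraries. In EC Wnt5a libraries the list took 2.53 to 3.53%, above every MSC Wnt5a library. Pecam1, the adhesion molecule CD31 of vessel walls, was at 1240, 1423 and 1259 CPM in MSC Wnt5a and at 2359, 2653 and 1723 CPM in MSC WT, beside a mean of 2094 CPM in EC WT. Fibroblast markers, a list of 20, took 0.821 to 1.92% of UMIs in MSC Wnt5a and 1.18 to 1.32% in MSC WT, against 0.186 to 0.350% in EC WT. Markers of CXCL12-abundant reticular cells, a list of 13, took 0.324 to 0.400% of UMIs in MSC Wnt5a and 0.404 to 0.545% in MSC WT. The same list took 0.318 to 0.396% in EC Wnt5a, 0.245 to 0.394% in EC WT and 0.875 to 1.36% in OBC WT. Of that list the receptors Lepr and Pdgfrb were nearly undetected. Lepr had 0, 2 and 0 UMIs in Wnt5a and 1, 0 and 0 in WT, and Pdgfrb had 1, 1 and 0 in Wnt5a and 4, 1 and 0 in WT. The libraries are called MSC after their label, and they hold transcripts of all these marker lists.

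**Figure D1:**
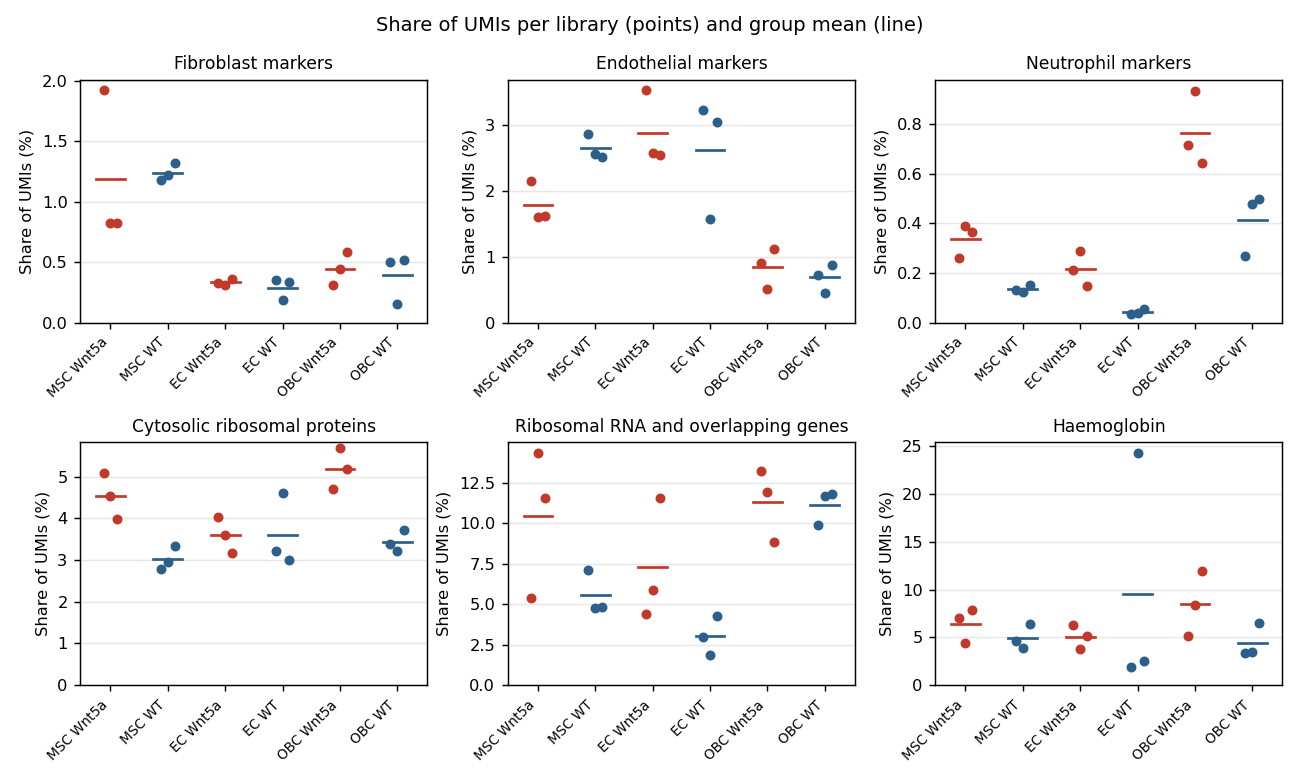
Share of all UMIs (%, y axis) taken by 3 marker lists and 3 RNA classes in each niche library, by group (x axis, 3 libraries each); points are libraries and lines are group means. In the MSC libraries the neutrophil and ribosomal protein shares lie higher in all 3 Wnt5a libraries than in all 3 WT libraries, the endothelial share lies lower, and the fibroblast share is highest in 1 Wnt5a library (1.92%).

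Of the 1099 genes tested in MSC, 5 (0.455%) passed edgeR's quasi-likelihood test at an adjusted p under 0.05, with 3 (0.273%) higher and 2 (0.182%) lower in Wnt5a. At an unadjusted p under 0.05 there were 203 genes (18.5%), of which 111 (10.1%) were higher and 92 (8.37%) lower. The genes that fell were Sgk1 and Kitl, and those that rose were S100a9, Anp32b and the processed pseudogene Rps24-ps2. In bulk RNA such as this, fewer cells of a type and less RNA per cell cannot be told apart.

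**Figure D2:**
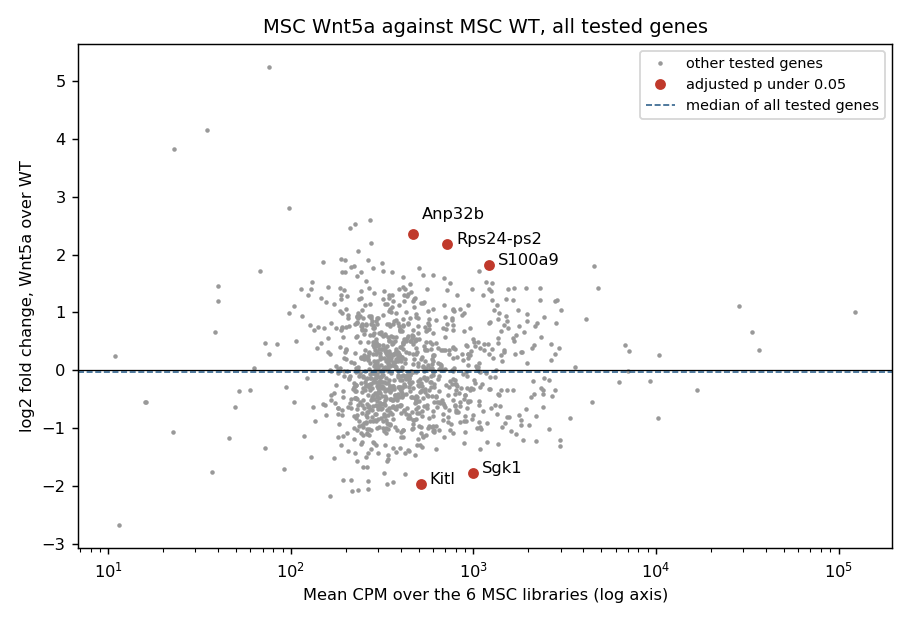
Log2 fold change of MSC Wnt5a over MSC WT (y axis) against the mean CPM over the 6 MSC libraries (x axis, log scale) for the 1099 tested genes; red points are the 5 genes with an adjusted p under 0.05. The 5 named genes lie at log2 fold changes beyond 1.7 in size, while the median of all genes is -0.03.

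Sgk1 encodes a kinase that glucocorticoids and serum induce and that controls ion transport and cell survival. It was at 584, 373 and 420 CPM in the Wnt5a libraries (8, 11 and 12 UMIs) and at 1532, 1576 and 1468 CPM in the WT libraries (50, 41 and 46 UMIs). The 3 WT libraries lay close together and far above every Wnt5a library. The means were 459 ± 111 CPM in Wnt5a and 1525 ± 54.6 CPM in WT (SD, n = 3 each), a log2 fold change of -1.78 (edgeR adjusted p = 0.0169, SE 0.41). Sgk1 lies on chromosome 10 of GRCm38 (21882184 to 21999903, plus strand). In the other populations Sgk1 averaged 1001 CPM in EC Wnt5a and 1535 CPM in EC WT, and 406 CPM in OBC Wnt5a and 270 CPM in OBC WT. The EC WT level was thus as high as the MSC WT level. The share of UMIs in endothelial markers, given above, was also lower in MSC Wnt5a, with a ratio of Wnt5a to WT of 0.677, where the fitted fold for Sgk1 was 0.292; the part of that share in the result for Sgk1 was not tested.

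Kitl, the niche signal that binds the KIT receptor of blood stem cells, was at 365, 203 and 105 CPM in Wnt5a (5, 6 and 3 UMIs) and at 797, 1038 and 574 CPM in WT (26, 27 and 18 UMIs). The lowest WT library stood above the highest Wnt5a library. The means were 224 ± 131 CPM in Wnt5a and 803 ± 232 CPM in WT (SD, n = 3 each), a log2 fold change of -1.96 (edgeR adjusted p = 0.0432, SE 0.49). The gene lies on chromosome 10 of GRCm38 (100015630 to 100100416, plus strand). Kitl averaged 442 CPM in EC Wnt5a and 597 CPM in EC WT, and 412 CPM in OBC Wnt5a and 586 CPM in OBC WT, differences that did not pass the test (edgeR adjusted p = 0.807 in EC and 0.872 in OBC). The share of UMIs in endothelial markers was lower in MSC Wnt5a, with a ratio of Wnt5a to WT of 0.677. The part of that share in the result for Kitl was not tested. The call of Kitl is the least firm of the 5: it was lost in each of 8 fits that left out 1 library, with edgeR adjusted p-values up to 0.235. Over all 18 such fits its log2 fold change ran between -2.33 and -1.61.

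To show the regulatory sequence of the 2 genes that fell, 1 promoter window of each is given, from RefSeq on GRCm38.p6, 5′ to 3′ on the plus strand. Each window runs from 250 bases before to 50 bases after an annotated start. Capitals mark 3 motifs searched on both strands: the glucocorticoid response element (AGAACA, any 3 bases, TGTTCT), the GC box GGGCGG and the TATA box TATAAA.
Sgk1, chr10:21993640-21993939: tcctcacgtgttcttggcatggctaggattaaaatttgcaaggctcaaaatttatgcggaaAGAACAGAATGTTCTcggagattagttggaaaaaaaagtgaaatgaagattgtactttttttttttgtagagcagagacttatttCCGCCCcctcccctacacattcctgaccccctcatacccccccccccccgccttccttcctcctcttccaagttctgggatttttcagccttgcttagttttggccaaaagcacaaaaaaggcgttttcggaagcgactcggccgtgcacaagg
Kitl, chr10:100015571-100015870: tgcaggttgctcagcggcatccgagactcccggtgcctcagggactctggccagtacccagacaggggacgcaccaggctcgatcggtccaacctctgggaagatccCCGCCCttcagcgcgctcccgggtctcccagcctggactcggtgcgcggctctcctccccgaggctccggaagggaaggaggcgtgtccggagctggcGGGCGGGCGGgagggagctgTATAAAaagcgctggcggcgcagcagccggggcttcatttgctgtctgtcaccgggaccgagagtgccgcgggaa
RefSeq lists 6 windows for Sgk1. The fifth along the chromosome is shown because it is the only one of them that holds the glucocorticoid response element. Within that window the element begins 189 bases before the annotated start, and the window also has 1 GC box. Which of the annotated starts is used in these cells was not determined. The sixth holds 4 GC boxes and 1 TATA box. The element is rare at this stringency: 3 of 32851 promoter windows (0.00913%) hold it. GC boxes were found in 35.7% and TATA boxes in 13.6% of all windows. The Kitl window has 3 GC boxes, of which 2 overlap, and 1 TATA box. A match is a description of the letters and says nothing about binding in these cells.

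S100a9, a subunit of calprotectin stored in neutrophils, was at 1459, 2405 and 1819 CPM in Wnt5a (20, 71 and 52 UMIs) and at 613, 500 and 511 CPM in WT (20, 13 and 16 UMIs). Every Wnt5a library stood above every WT library. The means were 1895 ± 478 CPM in Wnt5a and 541 ± 62.4 CPM in WT (SD, n = 3 each), with a fold of 3.52 (edgeR adjusted p = 0.0169). S100a9 lies on chromosome 3 of GRCm38 (90692632 to 90695721, minus strand). It was also higher in Wnt5a in EC (938 against 207 CPM in WT, edgeR adjusted p = 0.0011), and in OBC it averaged 5197 CPM in Wnt5a and 2604 CPM in WT (edgeR adjusted p = 0.333).

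Anp32b, a nuclear histone-binding protein, was at 365, 1253 and 700 CPM in Wnt5a (5, 37 and 20 UMIs) and at 215, 154 and 95.7 CPM in WT (7, 4 and 3 UMIs). All Wnt5a libraries were above all WT libraries, although WT levels rest on few UMIs. The log2 fold change was 2.36 (edgeR adjusted p = 0.0138, SE 0.51), from means of 773 ± 449 CPM in Wnt5a and 155 ± 59.4 CPM in WT (SD, n = 3 each). Anp32b (chromosome 4 of GRCm38, 46450902 to 46472657, plus strand) was far higher in the osteoblastic libraries, at 3613 CPM in OBC Wnt5a and 2555 CPM in OBC WT.

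Rps24-ps2, a processed copy of a ribosomal protein gene, was at 657, 1592 and 1259 CPM in Wnt5a (9, 47 and 36 UMIs) and at 245, 154 and 383 CPM in WT (8, 4 and 12 UMIs). Its log2 fold change was 2.18 (edgeR adjusted p = 0.0103, SE 0.44), with means of 1169 ± 474 CPM in Wnt5a and 261 ± 115 CPM in WT (SD, n = 3 each). It lies on chromosome 3 of GRCm38 (3791898 to 3792292, plus strand). Reads can be shared with the parent gene Rps24, which was at 1459, 1897 and 1924 CPM in Wnt5a and at 643, 346 and 1276 CPM in WT (log2 fold change 1.22, edgeR adjusted p = 0.086, SE 0.39). With the UMIs of Rps24 and its pseudogenes summed, a choice made after seeing the data, the family had a log2 fold change of 1.44 and edgeR adjusted p = 0.055, so the pseudogene's call is uncertain.

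The calls depended on single libraries. Leaving out WT replicate 1, WT replicate 2 or Wnt5a replicate 5 gave 0 calls in MSC (160, 172 and 130 genes with an unadjusted p under 0.05), and leaving out Wnt5a replicate 6 gave 2. Leaving out WT replicate 3 gave 16 and Wnt5a replicate 4 gave 14; leaving out EC WT replicate 14 gave 42 and EC WT replicate 15 gave 24. Fitting the 6 MSC libraries alone, with 705 genes tested, called 71 (10.1%), of which 44 (6.24%) were higher and 27 (3.83%) lower, and all 5 genes above were among them. Under RLE scaling 9 genes were called, 3 higher and 6 lower, and with DESeq2 36 were, 13 higher and 23 lower, again with all 5. These alternatives moved the median log2 fold change of all genes, which was -0.03 in the main fit, by -0.208 under RLE scaling and by -0.21 with DESeq2, so group medians below are read against the median of all genes.

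**Figure D3:**
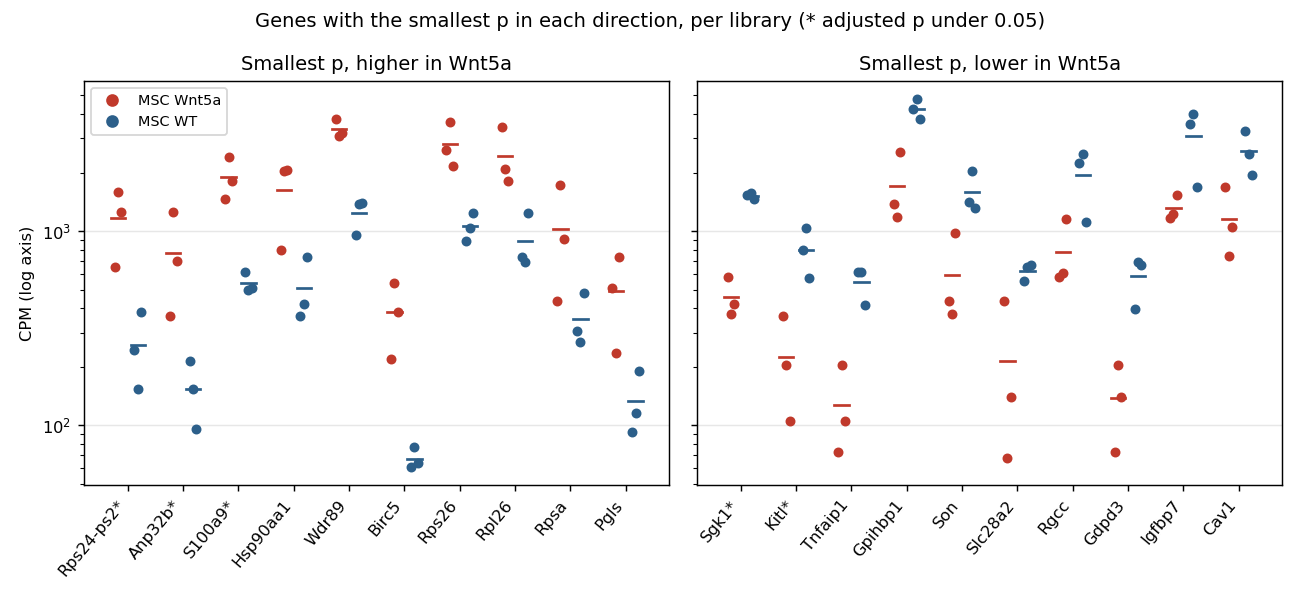
CPM (y axis, log scale) in each MSC library for the 10 genes with the smallest p in each direction (x axis), Wnt5a in red to the left of WT in blue; points are libraries, lines are group means and asterisks mark an adjusted p under 0.05. For Sgk1 the Wnt5a libraries sit between 373 and 584 CPM and the WT libraries between 1468 and 1576 CPM.

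Next in order of p stood genes that did not pass. Among those with positive values were Hsp90aa1, a stress-inducible chaperone (log2 fold change 1.72, edgeR adjusted p = 0.0547), and Birc5, the mitotic protein survivin, at 219, 542 and 385 CPM in Wnt5a and 61.3, 76.9 and 63.8 CPM in WT (edgeR adjusted p = 0.0547). The WT values of Birc5 are 2 UMIs each. Wdr89, of unclear function, was at 3794, 3083 and 3183 CPM in Wnt5a and at 950, 1384 and 1404 CPM in WT (edgeR adjusted p = 0.0547), and Pgls, an enzyme of the pentose phosphate pathway, averaged 494 ± 249 CPM in Wnt5a and 133 ± 52.0 CPM in WT (SD, n = 3 each; edgeR adjusted p = 0.06). The 3 ribosomal protein genes Rps26, Rpl26 and Rpsa completed the first 10, with log2 fold changes of 1.42, 1.42 and 1.59.

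Among the negative values that did not pass was that of Gpihbp1. The gene, whose product carries lipoprotein lipase to the inner face of capillaries, was at 1386, 1186 and 2554 CPM in Wnt5a and at 4259, 4768 and 3797 CPM in WT (log2 fold change -1.31, edgeR adjusted p = 0.06, SE 0.38). Cav1, the coat protein of caveolae, averaged 1158 ± 476 CPM in Wnt5a and 2575 ± 669 CPM in WT (SD, n = 3 each; edgeR adjusted p = 0.0878), and Igfbp7, a matrix protein of vessels, averaged 1309 ± 201 CPM in Wnt5a and 3081 ± 1224 CPM in WT (SD, n = 3 each; edgeR adjusted p = 0.0878). Rgcc, a regulator of the cell cycle with a high level in capillaries (mean 2478 CPM in EC WT), was at 584, 610 and 1154 CPM in Wnt5a and at 2237, 2499 and 1117 CPM in WT, so that the groups overlapped. The others were Tnfaip1, an adaptor for protein degradation (-1.96, edgeR adjusted p = 0.0547), the splicing factor Son (-1.36, edgeR adjusted p = 0.0724), the nucleoside transporter Slc28a2 (-1.79, edgeR adjusted p = 0.0798) and the lysophospholipase Gdpd3 (-1.93, edgeR adjusted p = 0.086). In the fit of the 6 MSC libraries alone, Gpihbp1, Cav1, Igfbp7, Rgcc, Tnfaip1, Son, Slc28a2 and Gdpd3 all passed. That fit called 27 of 705 genes (3.83%) lower. The genes named here were picked by p from the same libraries, so their passing is no independent support.

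Gene lists are described by counts and medians. As background, 140 tested genes (12.7%) had all 3 Wnt5a libraries above all 3 WT libraries and 142 (12.9%) had them below. Of the endothelial markers, 13 of 15 were tested: 0 passed, 13 had negative values, and the median log2 fold change was -0.44 beside -0.03 for all genes. In 6 of the 13, each Wnt5a library was below each WT library. Egfl7, a matrix factor secreted by endothelium, was at 2043, 1321 and 2064 CPM in Wnt5a and at 4167, 4076 and 4148 CPM in WT (log2 fold change -1.20, edgeR adjusted p = 0.126, SE 0.42). Esam, an adhesion molecule of endothelial junctions, was at 1021, 136 and 1015 CPM in Wnt5a and at 1563, 1423 and 1946 CPM in WT (edgeR adjusted p = 0.145). The junction protein Cdh5 differed less, with 2918, 1728 and 1749 CPM in Wnt5a and 2390, 2845 and 2712 CPM in WT (log2 fold change -0.34, edgeR adjusted p = 0.695). Egfl7 and Esam passed in the fit of the 6 MSC libraries alone, where 2 of 11 tested endothelial markers were called. Among all 705 genes tested there, 27 (3.83%) were called lower, and that fit uses the same MSC counts.

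Of the 20 fibroblast markers, 11 were tested, 0 passed, and 5 had positive and 6 negative values, with a median of -0.02. Without Wnt5a replicate 4, 2 were positive and 9 negative, with a median of -0.44, so the balance rests on that library. The smallest p was that of Ly6a, the stem cell antigen Sca-1, with 1167, 1186 and 980 CPM in Wnt5a and 2053, 2230 and 1532 CPM in WT (log2 fold change -0.80, edgeR adjusted p = 0.224, SE 0.36). Ly6a averaged 2077 CPM in EC WT, about the MSC WT level. Clec3b (tetranectin) and Smoc2, a matrix-associated calcium-binding protein, were at 209.9 CPM or more in each MSC library and averaged at most 44.5 CPM in EC Wnt5a and 29.6 CPM in EC WT, with log2 fold changes between genotypes of -0.45 and -0.64 that did not pass (edgeR adjusted p = 0.688 and 0.639).

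Stromal niche factors other than Kitl gave no call. Of 18 genes on the list of niche factors, 6 were tested, 1 passed (Kitl), and the median was -0.15. That median turned to 0.092 without WT replicate 1 and to 0.072 without Wnt5a replicate 5. Cxcl12, the chemokine that retains stem cells, was at 1970, 1965 and 1994 CPM in Wnt5a and at 2911, 1922 and 1915 CPM in WT, with WT replicate 1 alone standing higher (log2 fold change -0.19, edgeR adjusted p = 0.837, SE 0.40, and 0.02 without WT replicate 1). Of 13 markers of CXCL12-abundant reticular cells, 10 were tested, 1 passed (Kitl), 4 had positive and 6 negative values, and the median was -0.27. Without WT replicate 1, when 12 could be tested, 7 were positive and 5 negative, with a median of 0.29 and 0 calls. Lpl, lipoprotein lipase, was at 1167, 1084 and 980 CPM in Wnt5a and at 2298, 3230 and 1436 CPM in WT (log2 fold change -1.11, edgeR adjusted p = 0.137, SE 0.40).

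Matrix genes gave no call. All 6 tested of 18 collagens were negative, where 576 of all 1099 tested genes were, with a median of -0.55 and 0 passing. The basement membrane chains Col4a1 and Col4a2 averaged 1854 ± 408 and 993 ± 171 CPM in Wnt5a, against 2933 ± 1221 and 1702 ± 496 CPM in WT (SD, n = 3 each; edgeR adjusted p = 0.426 and 0.271). For comparison, EC WT averaged 3802 CPM for Col4a1 and 1850 CPM for Col4a2. Of 53 matrix glycoproteins, proteoglycans and crosslinkers, 23 were tested, 0 passed, 10 were positive and 13 negative (median -0.31). Timp3, an inhibitor of matrix-degrading enzymes, averaged 1595 ± 388 CPM in Wnt5a and 2807 ± 1030 CPM in WT (SD, n = 3 each; edgeR adjusted p = 0.26). Of 29 integrin and focal adhesion genes, 10 were tested, 0 passed and 8 were negative (median -0.57), among them the tetraspanin Cd81, at 657, 203 and 735 CPM in Wnt5a and 1471, 1307 and 957 CPM in WT (edgeR adjusted p = 0.116). The integrin-linked kinase Ilk had 146, 0 and 140 CPM in Wnt5a and 153, 461 and 383 CPM in WT (edgeR adjusted p = 0.167).

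Genes of the WNT5A pathway were too sparse to compare. Of 37 receptors and effectors of non-canonical WNT signalling, 32 had a UMI in the MSC libraries, 5 were tested and 0 passed (2 positive, 3 negative, median -0.33; 2 lay above the median of all genes in the main fit and 2 under RLE scaling). The small GTPases Rac1 and Cdc42, which link WNT5A receptors to actin, were at 219, 407 and 385 CPM (Rac1) and 73.0, 271 and 280 CPM (Cdc42) in Wnt5a. In WT they were at 950, 731 and 415 CPM (Rac1) and 521, 577 and 319 CPM (Cdc42), above the Wnt5a libraries in both genes (edgeR adjusted p = 0.26 and 0.342). The nearest Rac1 libraries, at 415 and 407 CPM, differed by less than the worth of 1 UMI. Rhoa, a further small GTPase of the list, averaged 342 CPM in Wnt5a and 319 CPM in WT (log2 fold change 0.03, edgeR adjusted p = 0.987, SE 0.56). The receptor Ryk had 1, 2 and 1 UMIs in Wnt5a and 8, 3 and 3 in WT, and the receptor Fzd4 had 1, 1 and 4 in Wnt5a and 2, 2 and 3 in WT, too few for a test. Of 64 actin genes, the theme of the study's title, 31 were tested, 0 passed, and 14 were positive and 17 negative, with a median of -0.05 that is close to that of all genes. Relative to the median of all genes the balance did not move with scaling: 15 of the 31 lay above it in the main fit and 15 under RLE scaling, where the shift of all genes left 7 positive and 24 negative. Actb, cytoplasmic actin, averaged 7953 ± 413 CPM in Wnt5a and 6333 ± 1414 CPM in WT (SD, n = 3 each; edgeR adjusted p = 0.699), and the actin-binding calponin Cnn2 averaged 116 ± 37.5 CPM in Wnt5a and 334 ± 134 CPM in WT (SD, n = 3 each; edgeR adjusted p = 0.235). Of 25 canonical WNT genes, 5 were tested and 0 passed (median -0.20), and Ctnnb1, beta-catenin, averaged 549 ± 116 CPM in Wnt5a and 624 ± 134 CPM in WT (SD, n = 3 each; edgeR adjusted p = 0.838).

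**Figure D4:**
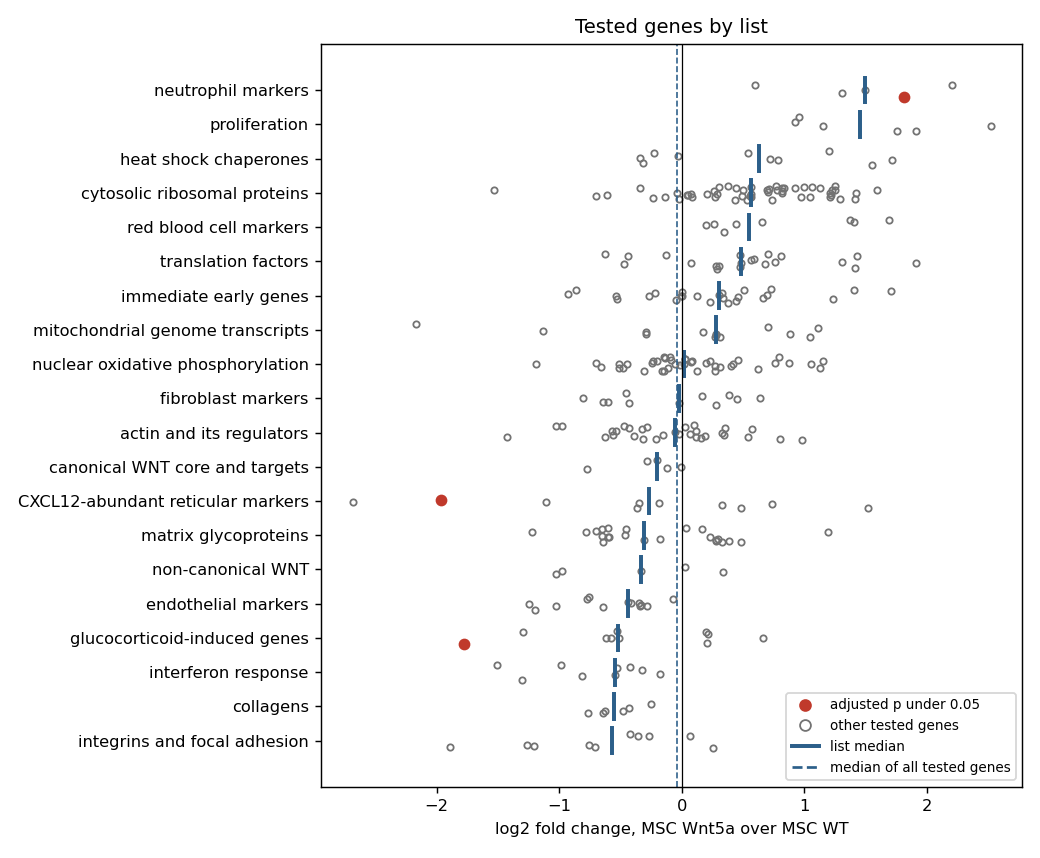
Log2 fold change of MSC Wnt5a over MSC WT (x axis) of every tested gene in 20 lists (y axis); open points are genes that did not pass, red points genes with an adjusted p under 0.05, blue bars list medians and the dashed line the median of all tested genes. Neutrophil and proliferation genes lie to the right (medians 1.49 and 1.46), and collagen, integrin and interferon genes to the left (medians -0.55, -0.57 and -0.55). Some of the neutrophil and proliferation genes had too few UMIs to be tested in the MSC libraries alone.

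Neutrophil transcripts had positive values. Of 14 markers, 5 were tested, all 5 had positive values, 1 passed (S100a9), and the median was 1.49. Ltf (lactoferrin), an iron-binding granule protein, was at 219, 678 and 455 CPM in Wnt5a and at 61.3, 115 and 128 CPM in WT (log2 fold change 2.21, edgeR adjusted p = 0.06, SE 0.64). Ltf had too few UMIs for the fit of the 6 MSC libraries alone, so it entered the test through the other niche libraries. In that fit 4 neutrophil markers were tested, all 4 positive (median 1.41). Ngp, neutrophilic granule protein, was at 438, 678 and 875 CPM in Wnt5a and at 337, 115 and 255 CPM in WT (edgeR adjusted p = 0.086), and S100a8, the partner of S100A9, was at 948, 1423 and 1084 CPM in Wnt5a and at 337, 538 and 543 CPM in WT (edgeR adjusted p = 0.0931). In all 3 genes the Wnt5a libraries stood above the WT libraries. For the remaining tested marker, Camp, the groups overlapped (log2 fold change 0.60, edgeR adjusted p = 0.546). The whole list took 0.260, 0.389 and 0.365% of UMIs in Wnt5a and 0.133, 0.123 and 0.151% in WT, and with 3 libraries against 3 no exact permutation test can give a two-sided p below 0.1. Other granule genes were near the edge of detection: Elane had 2, 2 and 4 UMIs in Wnt5a and 2, 0 and 1 in WT, and Prtn3 had 0, 3 and 5 in Wnt5a and 0 in each WT library. The neutrophil share was also higher in Wnt5a in the other populations, with group means of 0.216% in EC Wnt5a against 0.0425% in EC WT, and 0.763% in OBC Wnt5a against 0.414% in OBC WT. The part of neutrophil RNA in the other results was not tested.

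Ribosomal protein genes lay above the median of all genes. Of 84, 53 were tested, 0 passed, 45 were positive and 8 negative, and the median was 0.57. Above the median of all genes lay 46 of them in the main fit and 46 under RLE scaling, where 41 were positive and 12 negative. In 26 of the 53, all Wnt5a libraries lay above all WT libraries, and in 2 they lay below. Rps26 was at 2626, 3659 and 2169 CPM in Wnt5a and at 889, 1038 and 1244 CPM in WT (log2 fold change 1.42, edgeR adjusted p = 0.0559, SE 0.40). Rps27l, a p53-induced paralog of Rps27, had a negative value, with a mean of 162 ± 82.9 CPM in Wnt5a and 518 ± 82.9 CPM in WT (SD, n = 3 each; edgeR adjusted p = 0.17). In the fit of the 6 MSC libraries alone, 10 of 48 tested ribosomal protein genes were called higher and 1 lower. Among all 705 genes tested there, 44 (6.24%) were called higher and 27 (3.83%) lower. The summed share of ribosomal protein genes was 5.08, 4.54 and 3.99% of UMIs in Wnt5a and 2.78, 2.95 and 3.33% in WT. Of 27 translation factors, 21 were tested, 0 passed and 17 were positive (median 0.48), with Ncl, the nucleolar protein nucleolin, at 511, 678 and 1224 CPM in Wnt5a and 123, 192 and 606 CPM in WT (edgeR adjusted p = 0.107).

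Few cell cycle genes could be tested. Of 25 proliferation genes, 6 were tested, 0 passed, those 6 were positive and the median was 1.46. In the fit of the 6 MSC libraries alone 2 proliferation genes had enough UMIs to be tested, with a median of 1.045. Birc5, Rrm1 and Rrm2 had too few UMIs for that fit, so they entered the test through the other niche libraries. Rrm1 and Rrm2, the subunits of the enzyme that makes DNA building blocks, averaged 428 ± 348 and 318 ± 105 CPM in Wnt5a, against 139 ± 84.7 and 77.6 ± 14.1 CPM in WT (SD, n = 3 each; edgeR adjusted p = 0.181 and 0.218). Hmgb2, a chromatin protein of dividing cells, averaged 718 ± 307 CPM in Wnt5a and 338 ± 108 CPM in WT (SD, n = 3 each; edgeR adjusted p = 0.26). In the osteoblastic libraries Birc5, Rrm1 and Hmgb2 averaged 951, 655 and 1159 CPM in OBC Wnt5a and 173, 403 and 799 CPM in OBC WT.

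Of 19 heat shock chaperones, 10 were tested, 0 passed and 6 were positive (median 0.63). Without Wnt5a replicate 6 the median was 0.0074, so its distance from all genes rests on that library. Hsp90aa1 was at 803, 2033 and 2064 CPM in Wnt5a and at 368, 423 and 734 CPM in WT, and the constitutive form Hsp90ab1 was at 2991, 4811 and 3883 CPM in Wnt5a and at 1256, 1307 and 2521 CPM in WT (edgeR adjusted p = 0.0931). The Wnt5a libraries lay above the WT libraries for both genes. The mitochondrial chaperone Hspa9 averaged 384 ± 83.7 CPM in Wnt5a and 129.5 ± 53.5 CPM in WT (SD, n = 3 each; edgeR adjusted p = 0.153).

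Glucocorticoid-induced genes other than Sgk1 did not pass. Of 15, 10 were tested, 1 passed, and 4 were positive and 6 negative (median -0.52). Cdkn1a, the cell cycle inhibitor p21, was at 292, 203 and 350 CPM in Wnt5a and at 368, 1038 and 702 CPM in WT (log2 fold change -1.30, edgeR adjusted p = 0.181, SE 0.53). Tsc22d3, the glucocorticoid-induced leucine zipper, averaged 649 ± 235 CPM in Wnt5a and 898 ± 255 CPM in WT (SD, n = 3 each; edgeR adjusted p = 0.546). Promoter windows were found for 13 of the 15 genes, and of their 23 windows the one of Sgk1 shown above is the only one with the full response element. The search took exact matches within these windows only, so imperfect or more distant elements were not looked for.

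The tested interferon response genes were all negative in the main fit, without a call. Of 31, 9 were tested, 0 passed, and the median was -0.55, where 576 of all 1099 tested genes were negative. Without MSC Wnt5a replicate 5, 10 were tested, of which 2 were positive and 8 negative (median -0.54). Leaving out any other single MSC library gave 1 positive and 9 negative. Irf1, a transcription factor of the interferon response, was at 219, 169 and 35.0 CPM in Wnt5a and at 490, 577 and 63.8 CPM in WT, with a wide spread in both groups (edgeR adjusted p = 0.226). Ifitm3, a membrane protein that restricts viral entry, averaged 427 ± 262 CPM in Wnt5a and 761 ± 350 CPM in WT (SD, n = 3 each; edgeR adjusted p = 0.289), and B2m, the light chain of MHC class I, averaged 1149 ± 152 CPM in Wnt5a and 1995 ± 870 CPM in WT (SD, n = 3 each; edgeR adjusted p = 0.298). No tested interferon gene had its 3 Wnt5a libraries all below its 3 WT libraries.

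Whether the genotype difference in MSC differed from the mean difference in EC and OBC was tested gene by gene. Of 1099 genes, 0 (0%) passed edgeR's test, 86 had an unadjusted p under 0.05, and DESeq2 and limma voom also called 0 (85 and 85 genes with an unadjusted p under 0.05). Sgk1 had a log2 fold change of -1.78 in MSC beside -0.69 in EC and 0.44 in OBC, a difference of -1.65 (edgeR adjusted p = 0.444, SE 0.55). Kitl had -1.96 in MSC beside -0.42 in EC and -0.51 in OBC, a difference of -1.50 (edgeR adjusted p = 0.577, SE 0.61). For S100a9 the difference was 0.15 (edgeR adjusted p = 0.972, SE 0.52), with 1.81 in MSC, 2.29 in EC and 1.04 in OBC. For Anp32b it was 1.81 (edgeR adjusted p = 0.444, SE 0.61). Among the other named genes, Tnfaip1 and Gpihbp1 had differences of -2.86 (edgeR adjusted p = 0.413, SE 0.85) and -1.66 (edgeR adjusted p = 0.42, SE 0.52). None of the 5 calls was therefore shown to be particular to MSC.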

How the data were processed

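The niche libraries were counted as UMIs per Ensembl gene. The deposited table holds these counts unnormalized, and no column was left out. The tools were STAR and featureCounts on mm10 (GRCm38), per the submitters' processing notes. The labels do not state the UMI collapsing, the annotation release or the strand setting, so overlapping and antisense genes cannot be told apart. Symbols and positions were found for 17973 of 18194 IDs in GENCODE M21, and 28 spike-in entries were kept out of totals.

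The main fit took the 18 niche libraries as 6 groups in edgeR 4.0.16 (R 4.3.3): TMM scaling, filterByExpr (count at least 10, total at least 15) and the robust quasi-likelihood test. The common biological coefficient of variation was 0.318. P-values were adjusted by Benjamini-Hochberg over the 1099 tested genes, with a threshold of 0.05. Each log2 fold change sets Wnt5a over WT, and its SE was derived from edgeR's F. The test was tried on simulated data with known changes. The labels give no pairing of the niche libraries, so they were compared as independent.

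The members and gene lists were chosen with earlier results of these data known. The rule named the 3 markers, all genes past the test, the genes of smallest p up to 10 in each direction, and from each list up to 4 tested genes by p and 3 by level; some are left out. Lepr, Pdgfrb, Elane, Prtn3, Ryk and Fzd4 were not tested and were named after their values were seen. Counts of UMIs in shares cover counting error only, and 3 UMIs were taken as the floor of detection. Alternatives were RLE scaling, no filter, DESeq2 1.42.0, voom of limma 3.58.1, leaving out RNA classes, the MSC libraries alone, and leaving out each of 18 libraries.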

Additional observations from a re-analysis of the deposited data

Results flagged for a closer look

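The synthetic spike-in entries of the niche table, which no comparison uses, held 5 UMIs in MSC WT replicate 1, above the 3 UMIs taken as the floor of detection. The other MSC libraries held 0, 1 and 2 in Wnt5a and 3 and 1 in WT. MSC WT replicate 1 is the deepest MSC library (50421 UMIs). The EC libraries, most of them deeper still, held 6, 5 and 8 in WT and 0, 8 and 3 in Wnt5a.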

How the results depend on the processing

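The 5 calls in MSC (3 higher, 2 lower) became 9 (3 higher, 6 lower) under RLE scaling, 36 (13 and 23) with DESeq2, 11 (8 and 3) with limma voom, 18 (14 and 4) without haemoglobin, immunoglobulin, ribosomal RNA and mitochondrial genes, and 71 (44 and 27) in the 6 MSC libraries alone. In each of these 5 alternatives all 5 genes were kept. With no filter, 15930 genes were tested and 0 passed (0 higher, 0 lower), with 739 at an unadjusted p under 0.05. With Rps24 and its pseudogenes summed, an alternative added after the data were seen, 3 passed (2 higher, 1 lower), and Kitl did not (edgeR adjusted p = 0.0538). Leaving out single libraries gave 0 to 42 calls, 0 to 32 higher and 0 to 10 lower. The difference between MSC and the other populations had 0 calls in the main fit and in all alternatives other than 1 call each without MSC WT replicate 1 and without EC WT replicate 14, a range of 0 to 1. The cause of these shifts was not tested. EC WT replicate 14 has 24.3% haemoglobin UMIs. Of the named genes, Dcn turned to -0.44 without MSC Wnt5a replicate 4 (range -0.44 to 0.76 over the left-out libraries) and Cxcl12 to 0.017 without MSC WT replicate 1 (range -0.33 to 0.017); other named genes kept their sign in the alternatives run. No paired analysis was run, because the labels give no pairing. Replicate numbers run from 1 to 18 over the niche libraries without a repeat, so they cannot show whether libraries were matched. Whether MSC, OBC and EC libraries came from the same mice is not stated, and the test between populations took them as independent. With 19999 to 50421 UMIs per MSC library, most detected genes had too few UMIs to be tested.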

Other observations

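RNA classes that the lists above leave out also differed between the libraries. Ribosomal RNA and genes that overlap it took 5.36, 14.4 and 11.6% of UMIs in MSC Wnt5a and 7.14, 4.78 and 4.84% in MSC WT, so Wnt5a replicate 4 lay within the WT range and the other 2 above it. Transcripts of the mitochondrial genome took 2.66, 4.43 and 3.39% in Wnt5a and 2.28, 1.80 and 2.22% in WT. Of 27 such genes, 13 were tested, 0 passed, and 9 were positive and 4 negative (median log2 fold change 0.28). Without MSC Wnt5a replicate 5, 7 were positive and 7 negative (median 0.018), and without MSC WT replicate 2 the counts were 7 and 7 as well (median 0.056). Annotated pseudogenes of all types took 7.78, 7.86 and 6.68% in Wnt5a and 5.46, 5.08 and 6.07% in WT.

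Red blood cell markers, 8 tested of 10, had 0 calls and 8 positive values (median 0.55); 8 lay above the median of all genes in the main fit and 8 under RLE scaling, where 7 were positive. Haemoglobin took 7.05, 4.46 and 7.84% of UMIs in Wnt5a and 4.61, 3.87 and 6.44% in WT, so the groups overlapped. Car2, the carbonic anhydrase of red cells, was at 948, 2642 and 1749 CPM in Wnt5a and at 674, 731 and 702 CPM in WT (edgeR adjusted p = 0.265). Of 37 immediate early genes, 25 were tested, 0 passed and 16 were positive (median 0.31). Without MSC WT replicate 2, 12 were positive and 16 negative, with a median of -0.025. The AP-1 subunit Jund was at 1094, 2439 and 1749 CPM in Wnt5a and at 398, 577 and 1053 CPM in WT (log2 fold change 1.41, SE 0.43, edgeR adjusted p = 0.0798).

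Osteoblast markers, a list of 15, took 0.195, 0.240 and 0.202% of UMIs in MSC Wnt5a and 0.333, 0.292 and 0.281% in MSC WT, where OBC WT libraries reached 0.668 to 1.88%. Of these markers 6 were tested and 0 passed. Sparc, a matrix protein of bone and vessels, averaged 1727 ± 378 CPM in Wnt5a and 2409 ± 207 CPM in WT (SD, n = 3 each; edgeR adjusted p = 0.589).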
